A study of Mus musculus with 8 samples.

Results

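The genes described here make phosphatidylcholine, the main phospholipid of hepatocyte membranes, bile and lipoprotein shells, and were followed in livers of mice fed a diet without added choline. The 10 members were chosen by name, with earlier results of these data known: Slc44a1, Chka, Chkb, Pcyt1a, Chpt1, Cept1, Etnk1, Pcyt2, Pemt and Lpcat3. All 10 were found among the 17810 genes listed, and all 10 had enough counts to be tested. The samples are 1 liver each from 4 WT and 4 HKO littermates, which had eaten a fat-rich diet lacking choline (CD-HFD) since they were 8 weeks old, for 3 months, and were then 5 months old. HKO mice carry miR-33 loxP/loxP alleles and Cre recombinase driven by the albumin promoter, which aims the deletion of miR-33 at hepatocytes. The level of miR-33 in hepatocytes or other liver cells was not measured here. The labels call the controls WT and do not say whether these carry loxP alleles. All 8 livers share the diet, and no chow-fed liver was analysed here, so the comparison is of genotypes under choline deficiency and not of diets.

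Choline enters cells through carriers such as Slc44a1 and is then used in the CDP-choline branch: a choline kinase (Chka, Chkb) phosphorylates it, Pcyt1a activates it as CDP-choline in the step that limits the rate, and Chpt1 or Cept1 joins it to diacylglycerol. A parallel branch through Etnk1 and Pcyt2 makes phosphatidylethanolamine. In the liver, Pemt methylates phosphatidylethanolamine to phosphatidylcholine, which supplies the lipid without any dietary choline, and Lpcat3 then places polyunsaturated fatty acids in it. A shortage of phosphatidylcholine is a textbook cause of fatty liver in rodents.

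The libraries held 12174339 to 18735785 estimated counts. Levels are given in CPM, counts scaled by TMM to a common library total, and 3 counts, taken as the floor, corresponded to 0.149 to 0.255 CPM; every member was above 6 CPM in every liver. Of 12395 genes tested, 624 (5.03%) were called, meaning an adjusted p below 0.05 by the quasi-likelihood method of edgeR (Benjamini-Hochberg), 206 (1.66%) higher and 418 (3.37%) lower in HKO livers; with libraries scaled to their total count the split was 119 higher and 621 lower. HKO replicate 2 stood apart in most markers of bile duct cells (cholangiocytes): Krt19 was 16.9 CPM in it and at most 1.07 CPM in the other 7 livers, and the 5 cholangiocyte markers together were 107.8 CPM against 30.8 to 53.1 CPM. Krt7, Epcam and Spp1 were also highest in it, Spp1 at 63.1 CPM. Sox9 was highest in HKO replicate 3, at 15.5 CPM, against 7.87 CPM in HKO replicate 2. HKO replicate 2 also had the lowest summed level of 6 macrophage markers, 55.9 CPM, where the other HKO livers had 164 to 187 CPM and the WT livers 74.2 to 195 CPM. Among 6 hepatocyte markers, Cps1, Serpina1c and Hnf4a were called higher in HKO livers; with each liver left out in turn, Cps1 kept its call in 8 of 8 fits, Serpina1c in 3 and Hnf4a in 1, and under total count scaling the adjusted p of Hnf4a from edgeR was 0.151. The summed hepatocyte level overlapped, from 79136 to 111194 CPM in WT and from 70490 to 124350 CPM in HKO livers. Most of that sum is Alb, at 62295 to 96088 CPM in WT and 47064 to 98815 CPM in HKO livers, so it says little of the other markers. Of 6 stellate cell markers 1, Col1a1, was called lower, a call kept in 8 of 8 such fits. Of the other lists, 6 of 6 macrophage, 5 of 5 endothelial, 3 of 5 cholangiocyte and 2 of 5 leukocyte markers were tested: 0 of these were called by edgeR, DESeq2 or limma-voom, and 0 had an unadjusted p under 0.05. DESeq2 gave no adjusted p for Epcam, so its result does not cover that gene. Krt19, Krt7, Cd3e, Cd79a and Nkg7 had too few counts for the test. The stellate markers summed to 172 to 223 CPM in WT and 148 to 255 CPM in HKO livers, the endothelial markers to 49.8 to 166 and 86.5 to 188 CPM, the leukocyte markers to 10.2 to 16.5 and 14.6 to 19.97 CPM, and the 2 listed markers of fat and muscle to at most 1.48 CPM. In whole liver, fewer cells of a type and less RNA per cell cannot be told apart. The part of these differences in the results below was not tested.

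Chpt1 and Chkb, both of the CDP-choline branch, fell in HKO livers, and no other member passed the test. Of the 10 members 2 were called, both lower, against 5.03% of all genes tested in either direction and 3.37% called lower. In all, 8 members had a negative log2 fold change and 2, Pemt and Chka, a positive one; the median over the members was -0.24, and over all genes tested it was 0.01. DESeq2 called 3 of the 10 (7.18% of all genes it tested), adding Lpcat3. In 3 members, Chkb, Chpt1 and Pcyt2, the HKO livers did not overlap the WT livers, as was so for 12.5% of all genes tested. Since the members were chosen with earlier results of these data known, these counts are no independent test of them.

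**Figure D1:**
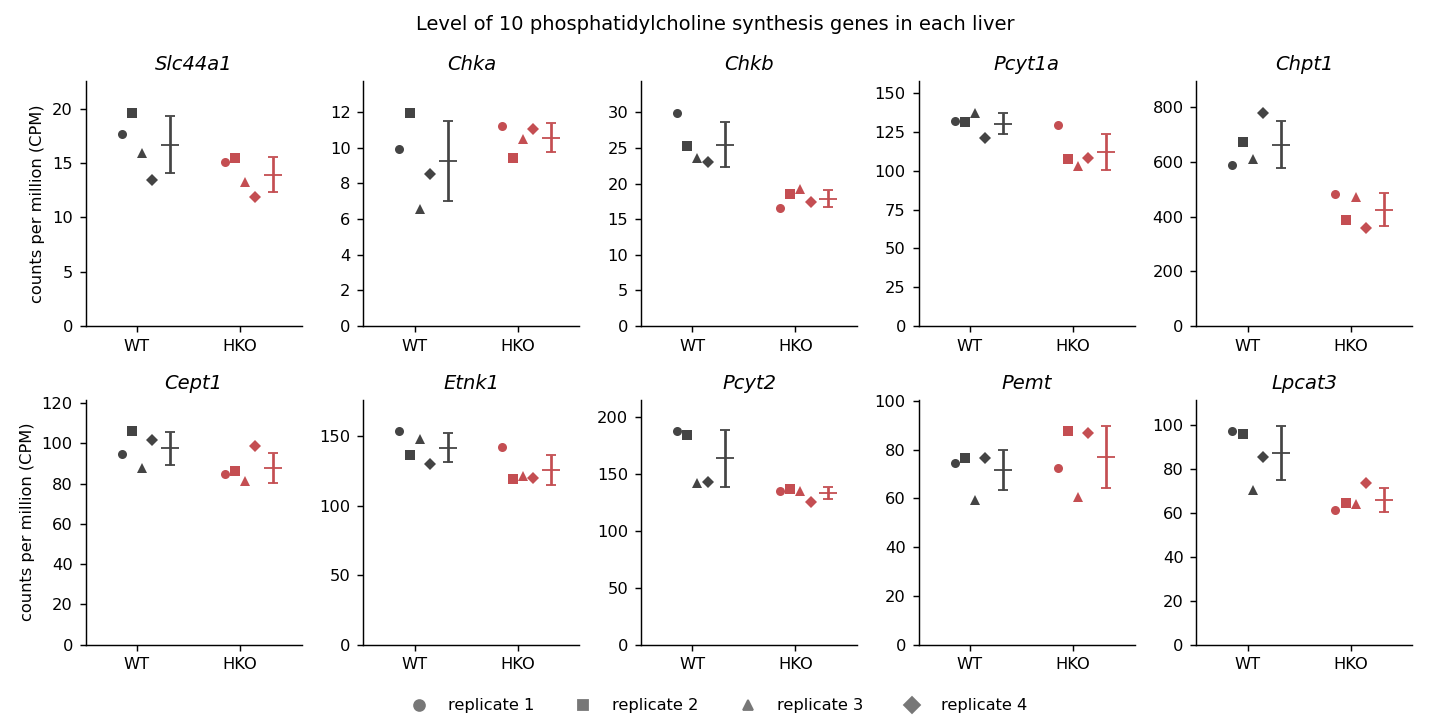
Level of each member in CPM (linear axes from 0) in the 4 WT and 4 HKO livers; each symbol is a liver, its shape the replicate number, and bars give the mean and SD. Chpt1, Chkb and Pcyt2 are lower in every HKO liver than in every WT liver, and Pemt and Chka overlap.

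Chpt1, cholinephosphotransferase 1, catalyses the last step of the CDP-choline branch and lies on chromosome 10 from 88472813 to 88503970 of GRCm38, on the minus strand. Its level was 589, 672, 611 and 779 CPM in WT replicates 1 to 4 and 484, 387, 472 and 359 CPM in HKO replicates 1 to 4. The highest HKO liver was thus below the lowest WT liver (p = 0.0286 from an exact two-sided permutation of the livers, which cannot go lower with 4 against 4). Any gene whose genotypes do not overlap gets this p, so it only restates the lack of overlap. The mean in WT was 663 ± 85.3 CPM and that in HKO livers 426 ± 61.6 CPM (SD, n = 4 each), so that the log2 fold change was -0.64 (SE, the standard error, 0.12; edgeR adjusted p = 0.014), or 0.642 of the WT level. Of the 8 fits that left out 1 liver, only that without WT replicate 2 lost the call. The adjusted p from edgeR was then 0.0541 and the log2 fold change -0.63. That fit called 212 of 12541 genes, against 624 of 12395 with all 8 livers. Without HKO replicate 2 the adjusted p from edgeR was 0.0383. The call of Chpt1 was also lost with replicate number as a block in the fit (the replicate block, adjusted p from edgeR 0.0604). Sycp3, a gene of meiotic chromosomes, overlaps Chpt1 on the opposite strand and is listed with its own, much smaller counts; with both summed the call remained.

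Chkb, choline kinase beta, carries out the first step of the branch and lies on chromosome 15 from 89426349 to 89429927, on the minus strand. Its level was 29.9, 25.3, 23.7 and 23.0 CPM in WT, against 16.5, 18.5, 19.2 and 17.4 CPM in HKO livers. The genotypes did not overlap (two-sided exact permutation test, p = 0.0286, again the value that any gene without overlap gets). The log2 fold change was -0.51 (SE 0.11, edgeR adjusted p = 0.0198), or 0.704 of the WT level. Its call was lost without WT replicate 1, WT replicate 2 or HKO replicate 4, with an adjusted p from edgeR of 0.0561 to 0.0684, and the log2 fold change was then between -0.51 and -0.42. Without HKO replicate 2 the adjusted p from edgeR was 0.0391. With the replicate block the call of Chkb was lost (adjusted p from edgeR 0.0622). The listed gene Gm44502 overlaps Chkb on the same strand, and the values of Chkb are fractional in all 8 livers, so reads may have been split between them; with both summed the call remained.

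Since Chkb and Chpt1 were called and the other choline kinase was not, the 250 bases before the RefSeq start (GRCm38.p6) of both and of Chka are shown, 5′ to 3′ on the strand of the gene. Capitals mark the GC box GGGCGG and the CCAAT box CCAAT, on either strand.
Chpt1, chr10:88503971-88504220, minus strand: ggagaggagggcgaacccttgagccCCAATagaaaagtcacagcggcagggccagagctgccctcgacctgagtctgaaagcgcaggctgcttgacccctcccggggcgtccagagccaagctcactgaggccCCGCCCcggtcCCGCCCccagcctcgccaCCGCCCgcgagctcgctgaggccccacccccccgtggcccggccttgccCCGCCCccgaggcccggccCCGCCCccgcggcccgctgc
Chkb, chr15:89429928-89430177, minus strand: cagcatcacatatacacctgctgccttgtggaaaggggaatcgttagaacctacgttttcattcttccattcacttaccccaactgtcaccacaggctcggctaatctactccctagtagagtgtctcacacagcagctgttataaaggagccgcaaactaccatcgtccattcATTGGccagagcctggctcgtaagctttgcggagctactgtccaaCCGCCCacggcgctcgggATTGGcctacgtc
Chka, chr19:3851523-3851772, plus strand: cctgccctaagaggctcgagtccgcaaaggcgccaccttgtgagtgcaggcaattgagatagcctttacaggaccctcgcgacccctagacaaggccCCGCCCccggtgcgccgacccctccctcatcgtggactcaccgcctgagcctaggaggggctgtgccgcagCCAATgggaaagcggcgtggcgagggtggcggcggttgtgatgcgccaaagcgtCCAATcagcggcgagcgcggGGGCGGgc
The Chpt1 window holds 5 GC boxes and 1 CCAAT box, that of Chkb 1 and 2, and that of Chka 2 and 2. Over the 15 windows listed for 9 of the members, 11 hold a GC box (73.3%) and 5 a CCAAT box (33.3%), where among 32851 mouse promoters of the same length 32.7% hold the first and 33.9% the second. Some windows of the same gene overlap and share boxes. By gene, 8 of the 9 hold a GC box and 5 a CCAAT box. Most of the 15 windows are also richer in G and C than the median mouse promoter (52.4%). A match to the sterol element TCACNCCAC was present in 2 overlapping windows of Pcyt1a (13.3% of the 15, against 1.05% of all), and 0 windows held the E-box CACGTG (6.02% of all), the nuclear receptor site AGGTCA (14.02%) or its direct repeats DR4 (0.02%) and DR1 (0.03%). Both strands were searched, and matches may overlap. Such matches describe the letters and say nothing of binding in these livers.

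Chka, choline kinase alpha, did not pass the test. It was 9.92, 11.9, 6.56 and 8.54 CPM in WT, against 11.2, 9.42, 10.5 and 11.1 CPM in HKO livers, where WT replicate 2 was the highest of all 8 and WT replicate 3 the lowest. The log2 fold change was 0.19 (95% interval -0.18 to 0.56, edgeR adjusted p = 0.584). Within a liver, the log2 ratio of Chkb to Chka was 1.09 to 1.85 in WT and 0.56 to 0.98 in HKO livers, without overlap, a difference of means of -0.72. That ratio is in CPM, so it compares livers and not the amounts of the enzymes.

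Pcyt1a, the enzyme of the limiting step, lies on chromosome 16 from 32430921 to 32475065. It was 132, 131.3, 137 and 121 CPM in WT, against 130, 107, 103 and 108.1 CPM in HKO livers. HKO replicates 2 to 4 were below the lowest WT liver, and HKO replicate 1 fell within the WT range. The log2 fold change of -0.22 (95% interval -0.41 to -0.03) did not pass the adjustment (edgeR adjusted p = 0.188). Cept1, which can make phosphatidylcholine and phosphatidylethanolamine, was 94.8, 106, 87.5 and 102 CPM in WT, against 84.9, 86.4, 81.3 and 98.7 CPM in HKO livers. The genotypes overlapped, with a log2 fold change of -0.15 (95% interval -0.34 to 0.04, edgeR adjusted p = 0.382). Cept1 shares its place on chromosome 3 with Dennd2d and Dram2 on the opposite strand, and with these summed the log2 fold change of Cept1 was -0.23 (edgeR adjusted p = 0.143). The log2 ratio of Cept1 to Chpt1 was -2.94 to -2.64 in WT and -2.54 to -1.86 in HKO livers, without overlap, a difference of means of 0.49. No test was run on these ratios.

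Slc44a1, a choline carrier of the plasma and mitochondrial membranes, was 17.7, 19.6, 16.0 and 13.5 CPM in WT, against 15.1, 15.4, 13.3 and 11.9 CPM in HKO livers. The ranges overlapped between 13.5 and 15.4 CPM, and the log2 fold change was -0.26 (95% interval -0.55 to 0.04, edgeR adjusted p = 0.322). The interval includes both no change and a fall as large as that of Chkb.

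In the ethanolamine branch, Etnk1 (ethanolamine kinase 1) was 153, 136, 148 and 130 CPM in WT, against 142, 119, 121 and 120.03 CPM in HKO livers. HKO replicate 1 lay inside the WT range and the other 3 HKO livers below it; the log2 fold change was -0.17 (edgeR adjusted p = 0.296). Pcyt2, the enzyme that activates ethanolamine, lies on chromosome 11 from 120610062 to 120617945. It was 187, 184, 141 and 142.5 CPM in WT, against 135, 137, 135 and 125 CPM in HKO livers. The WT livers fell into a high and a low pair, and the lowest WT liver was above every HKO liver. The two-sided exact permutation test gave p = 0.0286, as for any gene without overlap, which was so for 12.5% of all genes tested. The log2 fold change of Pcyt2, -0.30 (95% interval -0.53 to -0.07), did not pass the adjustment over all genes (edgeR adjusted p = 0.129). Within a liver, the log2 ratio of Pcyt1a to Pcyt2, the activating enzymes of the choline and ethanolamine branches, was -0.50 to -0.04 in WT and -0.38 to -0.06 in HKO livers and overlapped.

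Pemt, phosphatidylethanolamine N-methyltransferase, lies on chromosome 11 from 59970614 to 60046489. It was 74.6, 76.4, 59.5 and 76.5 CPM in WT, against 72.4, 87.5, 60.7 and 86.7 CPM in HKO livers. The lowest liver of each genotype was replicate 3, at nearly the same level, and the genotypes overlapped. The log2 fold change was 0.10 (95% interval -0.18 to 0.37, edgeR adjusted p = 0.729), and it was 0.03 without HKO replicate 2. The log2 ratio of Pemt to Pcyt1a, the methylation route against the CDP-choline route, was -1.21 to -0.66 in WT and -0.84 to -0.30 in HKO livers and overlapped. Over the 8 livers, the tested genes outside the members whose log2 CPM was most like that of Pemt were Inmt (Pearson r = 0.986), Pafah1b3 (r = 0.954) and Pter (r = 0.945); Pafah1b3 had a mean of 0.585 CPM, close to the floor. For Chpt1 they were Eif4g3 (r = 0.981), the overlapping Sycp3 (r = 0.978) and Nudt12 (r = 0.978). These values describe likeness over 8 livers that differ in genotype.

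Lpcat3, the acyltransferase that loads polyunsaturated chains on phosphatidylcholine, lies on chromosome 6 from 124663104 to 124704716. It was 97.0, 96.1, 70.5 and 85.2 CPM in WT, against 61.1, 64.5, 64.1 and 73.5 CPM in HKO livers. HKO replicate 4 was above WT replicate 3, and every other HKO liver was below every WT liver. The log2 fold change was -0.41 (SE 0.11), with an adjusted p of 0.0516 from edgeR, just over the threshold. The adjusted p was 0.0232 from DESeq2 and 0.0696 from limma-voom. It passed with edgeR without WT replicate 3 (adjusted p = 0.0142), and without HKO replicate 2 the adjusted p from edgeR was 0.102. Emg1 overlaps Lpcat3 on the opposite strand, and with both summed the log2 fold change was -0.27 (edgeR adjusted p = 0.152).

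**Figure D2:**
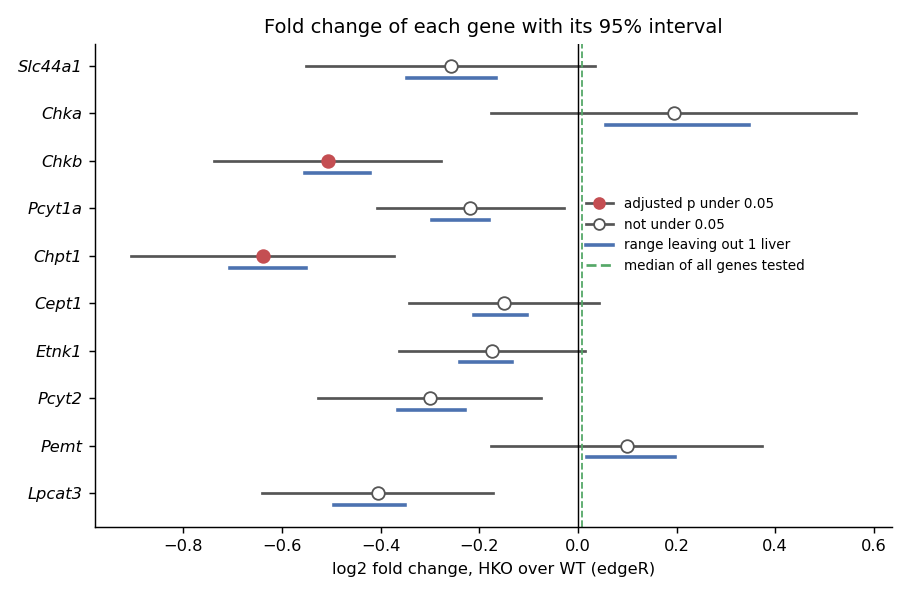
Log2 fold change of each member, HKO over WT, from edgeR, with its 95% interval (grey), the range of the value when each liver is left out (blue) and the median of all genes tested (dashed). The values of Chpt1 and Chkb (filled) are -0.64 and -0.51, and the intervals of Pemt and Chka include 0.

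**Figure D3:**
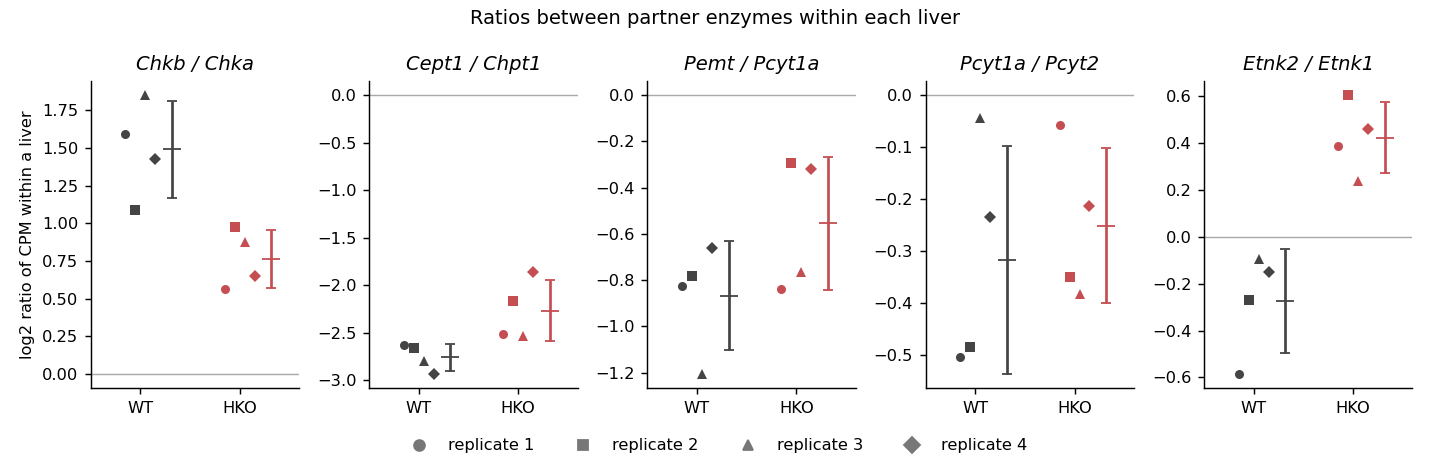
Log2 ratio of CPM between pairs of enzymes within each liver, with mean and SD; each symbol is a liver and its shape the replicate number. The ratios Chkb to Chka, Cept1 to Chpt1 and Etnk2 to Etnk1 do not overlap between the genotypes, and those of Pemt to Pcyt1a and Pcyt1a to Pcyt2 do.

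Levels of different genes can be compared only per length, and were divided by the kilobases of annotated exon. On this scale Chpt1 was the highest member in both genotypes, at 79.6 ± 10.2 CPM per kilobase (SD, n = 4) in WT and 51.1 ± 7.4 in HKO livers. Pcyt2 (37.7), Pemt (34.1), Cept1 (31.3) and Lpcat3 (26.7) followed in WT livers, each overlapping its neighbour in the order. Pcyt1a (17.6 CPM per kilobase in WT) lay below all of these without overlap, and Etnk1 (10.01) below Pcyt1a. Chkb (8.33) overlapped Etnk1 in WT livers but not in HKO livers, where Chkb was at 5.85 and Etnk1 at 8.87. Slc44a1 (2.4) and Chka (0.769) were the lowest, and on this scale Chka was below Slc44a1 in all livers. In HKO livers Pemt (36.5) ranked above Pcyt2 (30.6), though their livers overlapped. The order depends on the length used, since Etnk1, Chka and Pcyt1a have long exons outside the coding part. Per kilobase of coding sequence Etnk1 ranked 3 in WT livers instead of 7, and Pcyt1a ranked 4, at 118.4 CPM per kilobase, above Pemt (101.3), Cept1 (78.1) and Lpcat3 (59.7) without overlap. On that scale Chka and Slc44a1 overlapped in WT livers (6.8 and 7.75), and in HKO livers Chka (7.76) ranked above Slc44a1 (6.47).

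**Figure D4:**
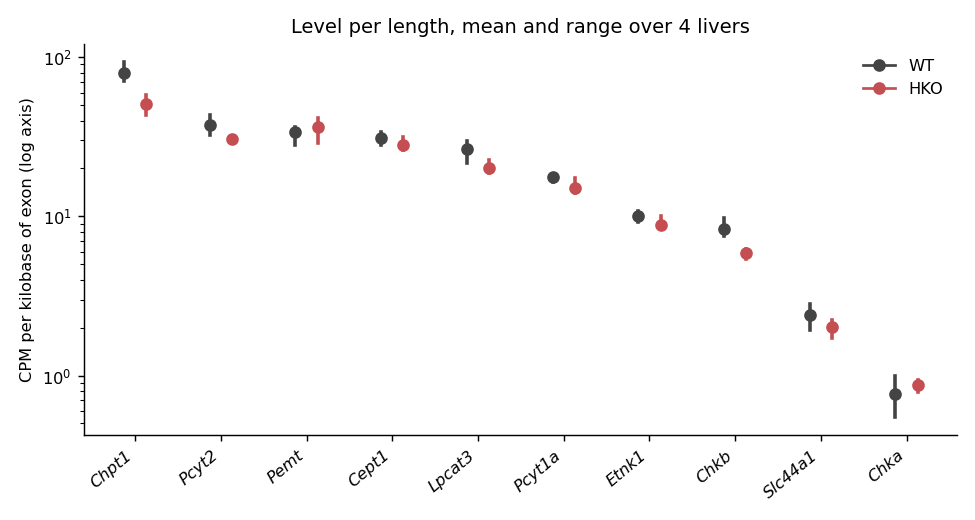
Level of each member in CPM per kilobase of annotated exon (log axis), with the mean (point) and range (line) over 4 livers of each genotype, in the order of the WT means. Chpt1 is the highest at 79.6 in WT and 51.1 in HKO livers, and Chka the lowest at 0.769 and 0.877.

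The other genes of the pathway were taken as 8 lists of 69 genes, of which 67 were listed in the table and 59 tested. Of these, 10 were called, 4 higher and 6 lower (against 5.03% of all genes tested, 1.66% higher and 3.37% lower), and the median log2 fold change was -0.0038. The genotypes did not overlap in 18 of the 59, against 12.5% of all genes. Since the lists were chosen with earlier results of these data known, these counts are no independent test of them. Without HKO replicate 2, 5 of the 59 were called, against 474 of 12534 genes over the whole table. Without WT replicate 1 it was 3, against 272 of 12541. Without WT replicate 2 it was 2, against 212 of 12541.

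**Figure D5:**
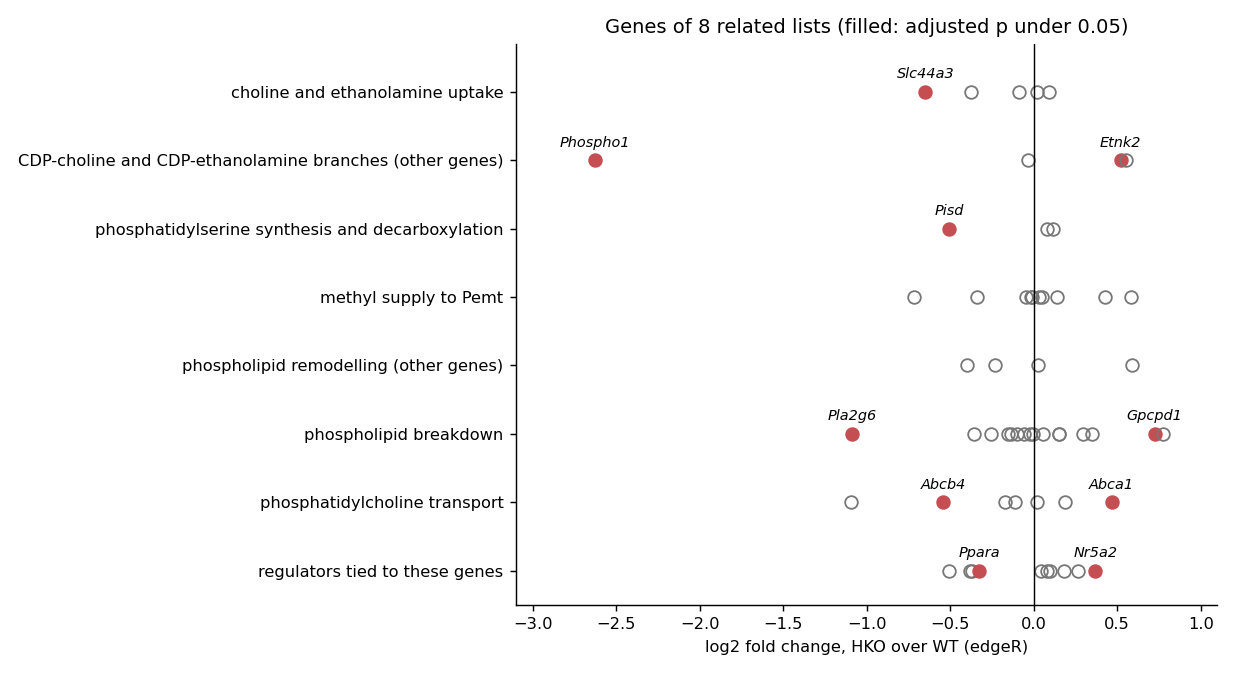
Log2 fold change, HKO over WT, of each tested gene of the 8 lists, one row per list; filled points have an adjusted p under 0.05 and are named. Phospho1 is the lowest at -2.63 and Gpcpd1 the highest called gene at 0.72, and methyl supply and remodelling have no filled point.

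In the CDP-choline and CDP-ethanolamine list, 1 of 4 tested genes was called higher and 1 lower. Etnk2, the second ethanolamine kinase and the one best known from liver, rose: it was 102, 113, 138 and 117 CPM in WT, against 186, 181, 142.8 and 165 CPM in HKO livers. The lowest HKO liver was above the highest WT liver, with a log2 fold change of 0.52 (SE 0.11, edgeR adjusted p = 0.0211). The call was lost without WT replicate 1, WT replicate 2 or HKO replicate 2 (adjusted p from edgeR 0.0517 to 0.0796), and under total count scaling (0.0892). The log2 ratio of Etnk2 to Etnk1, looked at after these values were seen, was -0.59 to -0.09 in WT and 0.24 to 0.60 in HKO livers. Phospho1, a phosphatase of phosphocholine and phosphoethanolamine, fell from 5.13, 9.49, 5.52 and 5.85 CPM to 0.742, 1.0, 2.2 and 0 CPM. Its log2 fold change was -2.63 (edgeR adjusted p = 0.0482); the call was lost in 6 of the 8 fits with 1 liver left out, with an adjusted p from edgeR of 0.0796 to 0.126, and remained without HKO replicate 3 or HKO replicate 4. Abi3 overlaps it.

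Slc44a3, a relative of Slc44a1, was the 1 gene called of 5 tested for uptake: it fell from 13.3, 11.2, 8.8 and 9.99 CPM to 7.15, 7.87, 5.8 and 6.73 CPM, its log2 fold change being -0.65 (edgeR adjusted p = 0.0357). The call held only without WT replicate 3 or HKO replicate 2 among the 8 fits, and the adjusted p from edgeR was 0.05003 to 0.112 in the others. The adjusted p of Slc44a3 from limma-voom was 0.0533, so that 0 of the 5 uptake genes were called by it. Of 3 genes of phosphatidylserine metabolism, Pisd, the mitochondrial decarboxylase that makes phosphatidylethanolamine, fell from 26.9, 27.0, 24.5 and 22.0 CPM to 19.3, 17.4, 18.9 and 14.9 CPM. The genotypes did not overlap and the log2 fold change was -0.51 (edgeR adjusted p = 0.0244); it lost its call without WT replicate 1, WT replicate 2, HKO replicate 2 or HKO replicate 4 (0.0552 to 0.0931).

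None of the 10 genes that supply methyl groups to Pemt was called by edgeR (0 of 10), 5 being higher and 5 lower, while 4 had an unadjusted p under 0.05 and DESeq2 called 4 and limma-voom 0. The most abundant were Bhmt, betaine-homocysteine methyltransferase, at 3812 CPM in WT, against 3888 CPM in HKO livers, and Mat1a, which makes S-adenosylmethionine, at 2867 and 3153 CPM. Both overlapped, with log2 fold changes of 0.03 and 0.14; that of Bhmt turned to -0.05 under total count scaling. Of 4 tested remodelling genes 0 were called by edgeR, DESeq2 or limma-voom, and 1.0 had an unadjusted p under 0.05. Lclat1 was 83.6 to 97.7 CPM in WT, against 63.6 to 82.7 CPM in HKO livers without overlap (log2 fold change -0.23, edgeR adjusted p = 0.205), and Mboat7 18.8 to 21.8 and 17.8 to 22.5 CPM, with a log2 fold change of 0.03 that was -0.06 under total count scaling.

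Of 16 tested genes of phospholipid breakdown, 1 rose and 1 fell, and both calls held in each of the 8 fits with 1 liver left out. Pla2g6, a calcium-independent phospholipase A2, was 31.5, 39.4, 31.1 and 32.8 CPM in WT, against 18.5, 16.1, 16.6 and 12.0 CPM in HKO livers. On the log2 scale Pla2g6 changed by -1.09 (SE 0.13, edgeR adjusted p = 0.00154), or 0.47 of the WT level. Gpcpd1, which splits glycerophosphocholine to release choline, was 148, 187, 189 and 172 CPM in WT, against 287, 261, 350 and 251 CPM in HKO livers. On the log2 scale Gpcpd1 changed by 0.72 (SE 0.12, edgeR adjusted p = 0.0061), 1.65 times the WT level.

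Among 7 genes of phosphatidylcholine transport, Abcb4, which moves phosphatidylcholine into bile, fell from 360, 461, 410 and 364 CPM to 287, 233, 277 and 299 CPM. Its log2 fold change was -0.54 (SE 0.11, edgeR adjusted p = 0.0154). Of the 8 fits with 1 liver left out, only that without WT replicate 2 lost the call (adjusted p from edgeR 0.0632). The call of Abcb4 was also lost with the replicate block (adjusted p from edgeR 0.0604). Abca1, which moves phospholipid and cholesterol to apolipoprotein A-I, was higher in HKO livers, at 288, 279, 305 and 321 CPM in WT, against 406, 375, 481 and 385 CPM in HKO. Its adjusted p was 0.0175 from edgeR, and 0.0608 without WT replicate 1 and 0.0745 without WT replicate 2. Of 10 regulators, the nuclear receptor Nr5a2 was called higher (log2 fold change 0.37, edgeR adjusted p = 0.0368) and Ppara lower (-0.33, adjusted p = 0.0358). Nr5a2 kept its call without WT replicate 3 or HKO replicate 3 and lost it in the other 6 fits (adjusted p from edgeR 0.0641 to 0.119) and under total count scaling (log2 fold change 0.28). Ppara kept its call only without HKO replicate 1, the others giving 0.0542 to 0.119.

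Matches to the seed of miR-33, the microRNA whose alleles carry loxP sites in HKO mice, were read in the longest annotated 3′UTR (GENCODE, GRCm38). The mature mmu-miR-33-5p sequence from RefSeq (chr15:82198127-82198147, plus strand, GRCm38.p6) has its seed, bases 2 to 8, in capitals. In the sites, capitals mark the match of 7 or 8 bases. Its final A lies opposite base 1 in the sites of Pcyt1a and Abca1, and opposite base 2 in those of Gpcpd1 and Ppara.
mmu-miR-33-5p: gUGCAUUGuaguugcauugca
Pcyt1a, chr16:32473506-32473535, plus strand: taccctgtggaAATGCAAagggagccgctc
Gpcpd1, chr2:132530133-132530162, minus strand: actaagtacctCAATGCAtgcatttgcact
Abca1, chr4:53033790-53033819, minus strand: ctgacactattCAATGCAAtgcacttcaat
Ppara, chr15:85801524-85801553, plus strand: ccaatgttaatCAATGCAcagcactctacg
Of the 10 members 1, Pcyt1a, holds a match, of 7 bases at position 2014 of its 3567-base 3′UTR, in exon 9 of 9; its level did not pass the test. Over 11536 tested genes, 16.2% hold a match, and the median 3′UTR is 1214 bases, against 1164 in the members. Chkb and Chpt1 hold 0 matches in 223 and 3426 bases. Of the 10 called pathway genes, Abca1 holds 3 (with overlaps), Gpcpd1 2 and Ppara 1; Abca1 and Gpcpd1 were higher and Ppara lower in HKO livers. A match in sequence is no measurement of repression.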

How the data were processed

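RNA-Seq libraries of 4 WT and 4 HKO livers, 1 per mouse, were grouped by their labels, which name both rRNA depletion and a small RNA kit, so the library type is uncertain. The descriptions of the 4 WT samples all open with the same number, while their titles differ. Columns were therefore matched by title, and genotype and replicate number were the same in both. The authors deposited estimated counts per gene, made with STAR and Partek's expectation-maximization counting, which splits reads that fit several genes; versions and strand setting are not given in the sources used here. Coordinates are listed on GRCm38 (65.9% of 17785 symbols had the RefSeq start), with ends given here 1 base before the listed stop. Estimated counts were rounded. edgeR 4.0.16 in R 4.3.3 was used with TMM scaling, its expression filter (minimum count 10), robust dispersions and Benjamini-Hochberg adjustment over 12395 genes. Log2 CPM adds a prior count of 2. Likeness, ratios and intervals of 95% were computed from this fit and its CPM with Python 3.11.15 and scipy 1.17.1. The models were tested on simulated data. Other settings tried were limma-voom (limma 3.58.1), DESeq2 1.42.0, other scalings, filters and thresholds, the replicate block, each liver left out in turn and, chosen after seeing the data, members summed with overlapping genes. The 10 members, the pathway and marker lists and the tests were chosen with earlier results of these data known. Text genes are all members, list genes with an adjusted p under 0.05 or, in a list with 0 such genes, the 2 most abundant, and the 3 most like Pemt and Chpt1; other marker and overlapping genes were named for what they limit. The p-values of the fits set the difference between genotypes against the spread between these mice. Precision rests on 12174339 to 18735785 counts per liver, floors cover counting error only, and the order numbers of the libraries follow genotype, so order and genotype cannot be told apart.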

Additional observations from a re-analysis of the deposited data

Results flagged for a closer look

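Among 58 groups of 4 livers (the CPM of the named genes and 5 ratios), 4 held a liver far from the other 3 by Dixon's criterion, which chance passes in about 1 of 20 groups. Etnk1 was 142.1 CPM in HKO replicate 1 against 119 to 121 CPM in the other HKO livers. Pemt was 59.48 CPM in WT replicate 3 where the other WT livers had 74.6 to 76.5 CPM. Phospho1 was 9.494 CPM in WT replicate 2 against 5.13 to 5.85 CPM. Nr5a2 was 79.82 CPM in WT replicate 3 against 69.5 to 71.1 CPM. Why these livers differ was not tested.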

How the results depend on the processing

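Of 2 members called, fits of RLE, upper quartile and total count scaling, limma-voom, legacy quasi-likelihood, both filters and the sum with overlapping genes gave 2 or 3, and DESeq2 3. Requiring a fold change above 1.5 left 1, and an unadjusted p gave 5. Leaving out each liver gave 0 to 3 members, and 3 to 5 of the 10 members whose genotypes did not overlap (5 under total count scaling, against 3). With a liver left out, 3 livers face 4, and a lack of overlap is easier to reach. The share of all genes was not computed for overlap in these settings, nor for an unadjusted p. These counts are therefore not a result about the members or the pathway genes. Of the 10 pathway genes called, DESeq2 called 16 among the same lists, a fold change above 1.5 left 4, an unadjusted p gave 22, and leaving out each liver gave 2 to 10. The correlations of deviations of same-numbered livers were -0.06, 0.01, -0.08 and -0.15. They show no pairing by replicate number, but with 4 livers per genotype they cannot exclude one. With the replicate block 0 members and 6 pathway genes were called, against 456 of 12395 genes over the whole table. The signs of uncalled genes near 0 turned: Bhmt to -0.049 and Mboat7 to -0.058 under total count scaling. With a liver left out, Bhmt ran from -0.102 to 0.166, Mat1a from -0.021 to 0.282 and Mboat7 from -0.026 to 0.087. The cause was not tested in any of these. The sign of all 10 members held under every setting run. Over all genes, calls ranged from 212 to 975 across the settings. Levels per length moved with the choice of length for all 10 members. Among the members, depth limits Chka most, at 120 to 186 counts per liver; of the called pathway genes Phospho1, at 0 CPM in HKO replicate 4, was not tested when 10 counts were required in every liver.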

Other observations

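Mir33, Chkb, Pla2g6 and Ppara all lie on chromosome 15 of GRCm38, and the 3 genes are 7.23, 2.87 and 3.54 megabases from Mir33. After this was seen, called genes were counted by distance from Mir33: 9 of 120 tested genes within 5 megabases (7.5%), 12 of 223 within 10 (5.38%) and 18 of 317 within 20 (5.68%), against 6 of 169 farther away on chromosome 15 (3.55%) and 600 of 11909 on the other chromosomes (5.04%). The 12 within 10 megabases include the 3 genes that prompted the count; 10 of the 12 were lower in HKO livers, as were 402 of the 600 on other chromosomes.

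Pctp and Gnmt, of the pathway lists, were just over the threshold with edgeR. Pctp, a phosphatidylcholine carrier of the cytosol, was 183 CPM in WT, against 85.8 CPM in HKO livers (log2 fold change -1.09, edgeR adjusted p = 0.0513), without overlap. Its adjusted p was 3.1e-05 from DESeq2 and 0.0197 from limma-voom, and from edgeR 0.0439 with the replicate block and 0.0345 under total count scaling, and it passed in 2 of the 8 fits with 1 liver left out. Gnmt, which spends methyl groups on glycine, was 390 and 585 CPM (log2 fold change 0.59, edgeR adjusted p = 0.0614), with overlap, and its adjusted p was 0.00544 from DESeq2 and 0.0689 from limma-voom. These were picked after their values were seen.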
